A study of Mus musculus with 10 samples.

Results

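The CLCA genes, named as calcium-activated chloride channel regulators, are followed here across 10 RNA-seq libraries of mouse intestinal tissue. The 4 members Clca1, Clca2, Clca4a and Clca4b were chosen by symbol from the 19456 genes listed in at least 1 library, and the family was picked because Clca4b was far higher after DSS. All 4 members were listed in the tables and all 4 passed the low-count filter. Clca2 passed it only through the TG untreated libraries, where it was highest.

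The groups were 2 libraries of ITGB6-overexpressing transgenic mice (TG) given oral 2.5% dextran sulfate sodium (DSS), 2 libraries of wild-type mice (WT) given the same DSS, 3 libraries of untreated TG mice and 3 libraries of untreated WT mice. The labels give the strain as C57BL/6 and describe the DSS mice as an intestinal fibrosis model. ITGB6 encodes the integrin beta subunit that pairs with the alpha-v subunit and activates latent TGF-beta, and DSS is a polymer that injures the colonic epithelium. The age of the mice, the days on DSS, the promoter driving the transgene and whether a library held 1 animal are not given in the sources used here.

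Libraries held 15393859 to 18284704 expected counts. Human ITGB6 ranged from 2201 to 3913 counts scaled to library size (CPM) in the TG libraries and from 0.117 to 1.13 CPM in the WT libraries, which is the direction of the labels. The labelled tissue carried the epithelial keratin Krt8 at 5432 to 8801 CPM and the colonic factor Hoxb13 at 145 to 229 CPM, whereas smooth muscle Myh11 reached at most 0.296 CPM. Of 12 small intestinal genes, lactase Lct reached at most 0.236 CPM, but Fabp2, a fatty acid binding protein of enterocytes, was at 85.1 to 352 CPM, and the 12 genes summed to 154 to 489 CPM per library. Xist, expressed from the inactive X chromosome, was at 307 to 739 CPM in the DSS libraries and 0 to 0.421 CPM in the untreated ones, and Y-linked Kdm5d was at 0 CPM in the DSS libraries and 26.6 to 44.2 CPM in the untreated ones. DSS and the sex of the mice therefore cannot be told apart in any DSS-against-untreated value or genotype-by-DSS term below. The same holds where genotype differences in untreated tissue and after DSS are set side by side. In bulk tissue, fewer cells of a type and less RNA per cell cannot be told apart either.

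CLCA proteins were first taken for chloride channels and are now regarded as secreted or membrane-anchored proteins that carry a self-cleaving metalloprotease domain. Human CLCA1 raises calcium-activated chloride current by stabilising the channel encoded by ANO1 at the cell surface. Mouse Clca1 is a major secreted protein of intestinal goblet cells, where it takes part in processing the mucus, and in the airway it is induced by interleukin 13. Clca4a and Clca4b are the mouse relatives of human CLCA4, a gene of the gut epithelium. CLCA2 is best known from stratified epithelia such as skin.

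The 4 members lie beside each other on the minus strand of chromosome 3 (RefSeq, GRCm38.p6), each with 14 exons. Clca4b (Entrez 99709) spans 144910921 to 144932529, Clca4a (99663) 144952486 to 144975045, Clca1 (23844) 145004537 to 145032776 and Clca2 (229933) 145070260 to 145099443. Together with Clca3a1, Clca3a2, Clca3b and the pseudogene Clca4c-ps they fill a cluster of 369767 bases. Older names overlap in this family ("Clca1" and "Clca2" were once used for Clca3a1 and Clca3a2), so the genes were matched by Entrez number.

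Clca4a and Clca4b are near-identical in sequence. Their coding sequences were 96.04% identical over 2778 bases, with a longest identical run of 168 bases, and 21% of the 50-base words of the Clca4b transcript also occurred in Clca4a. The other member pairs were 59.3 to 64.4% identical and shared 0 such words. Over 1952 windows of 60 coding bases, the pair differed at 0 to 9 bases, with a median of 2. The pair of windows that differ most and an identical pair show where a read can and cannot tell the genes apart. In the lines below (GENCODE M21 transcripts, GRCm38, minus strand, 5′ to 3′), capitals mark the bases that differ. The first pair lies in exon 5 at chr3:144926116-144926175 in Clca4b and chr3:144968346-144968405 in Clca4a, and the second pair in exon 1 at chr3:144932351-144932410 in Clca4b and chr3:144974866-144974925 in Clca4a.
Clca4b, exon 5: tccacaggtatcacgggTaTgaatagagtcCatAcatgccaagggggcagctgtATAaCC
Clca4a, exon 5: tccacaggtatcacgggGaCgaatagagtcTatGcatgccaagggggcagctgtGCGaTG
Clca4b, exon 1: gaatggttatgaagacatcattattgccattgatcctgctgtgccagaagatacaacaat
Clca4a, exon 1: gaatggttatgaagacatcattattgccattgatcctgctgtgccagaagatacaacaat
How the authors' counting divided reads between the pair is not recorded in detail, so values for either gene alone are uncertain to that extent, and the sum of the pair is given beside them.

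The 250 bases before the Clca4b start site (RefSeq, GRCm38.p6, chr3:144932530-144932779, minus strand) are shown because Clca4b is the member with the large DSS difference. Capitals mark matches to TATATA and to TATAAA, searched on both strands, so that TTTATA is a TATAAA on the other strand.
Clca4b promoter: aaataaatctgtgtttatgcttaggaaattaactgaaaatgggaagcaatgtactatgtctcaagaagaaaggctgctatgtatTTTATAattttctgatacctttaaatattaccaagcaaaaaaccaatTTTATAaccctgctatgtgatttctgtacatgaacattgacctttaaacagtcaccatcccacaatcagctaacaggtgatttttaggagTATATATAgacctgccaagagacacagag
The last TATATA match began 27 bases before the start site, and the 2 TATATA matches overlap. Of 32851 promoter windows of that length, 5.248% held TATATA and 12.37% held TATAAA. The window had a GC content of 33.2%, against a median of 52.4% over all promoters, while the Clca2 window had 52.8% and no match to either motif. The Clca2 window (chr3:145099107-145099356, minus strand) lies inside the RefSeq span of the gene, which ends at 145099443. It therefore precedes a start site within that span, unlike the Clca4b window, which adjoins the end of its gene. Neither window held the letters TTTATNG (CDX factors) or TGANTCA (AP-1) on either strand, which occurred in 9.811% and 6.749% of the promoter windows.

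**Figure D1:**
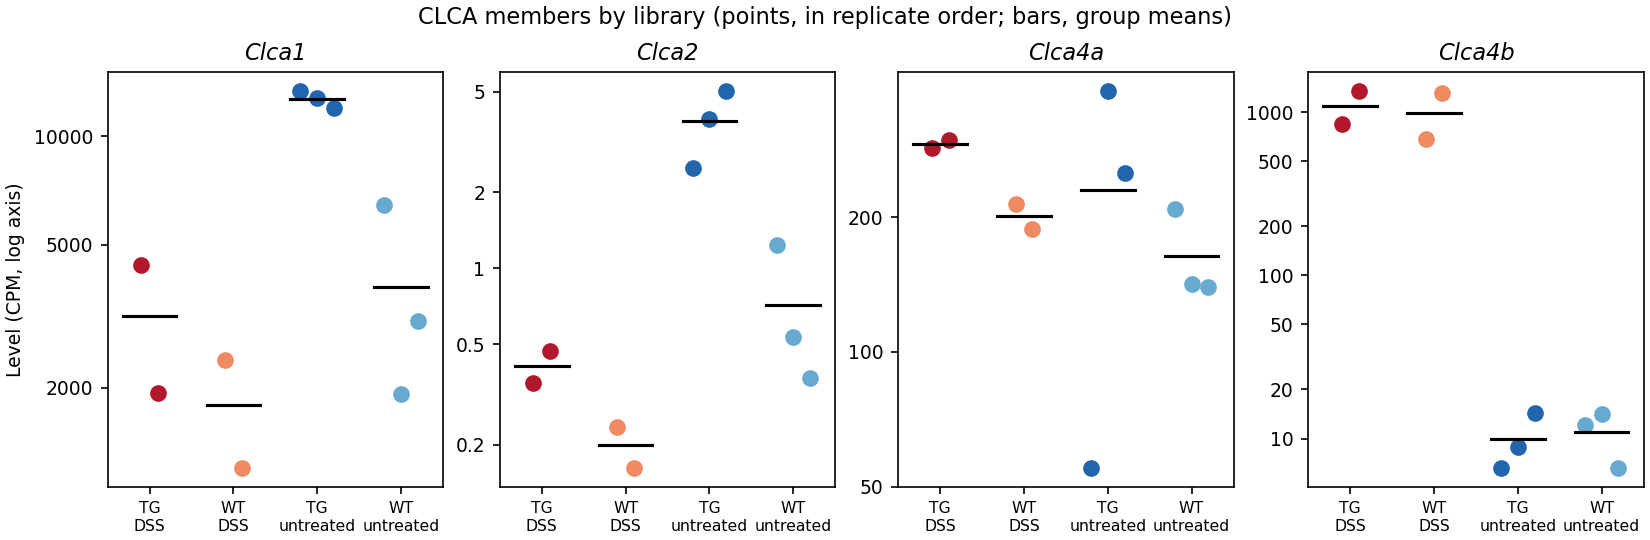
Level of each CLCA member in every library, in CPM on a log axis with its own range per panel; points are libraries in replicate order and bars are group means. Clca4b lies between 680 and 1345 CPM in the 4 DSS libraries and between 6.61 and 14.4 CPM in the 6 untreated ones, while Clca1 and Clca2 are highest in the 3 TG untreated libraries.

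Clca1, the goblet cell mucus protein, was the most abundant member by CPM and by FPKM in every library except WT DSS library 2, where Clca4b was higher. Counts scaled to the library by TMM gave 4375 and 1942 CPM in TG mice after DSS, 2393 and 1200 CPM in WT mice after DSS, 13332, 12722 and 11959 CPM in untreated TG mice and 6433, 1930 and 3064 CPM in untreated WT mice. The 3 untreated TG libraries stood above every other library and lay close together, and the untreated WT libraries were spread widely, with library 1 the highest. By deposited FPKM, a level per transcript length, Clca1 ranked between 3 and 6 among all listed genes in untreated TG libraries, between 9 and 113 in untreated WT libraries and between 29 and 199 in the DSS libraries.

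In untreated tissue, Clca1 averaged 12671 ± 688 CPM in TG mice and 3809 ± 2342 CPM in WT mice (SD, n = 3 each). The fitted difference was 3.33-fold (log2 1.73 ± 0.45 SE, 95% interval 1.67- to 6.61-fold), and the groups did not overlap, as was so for 32.1% of all genes tested. It missed the threshold in edgeR's quasi-likelihood test with Benjamini-Hochberg adjustment over 14072 genes (adjusted p = 0.0634), and DESeq2 placed it past the threshold (adjusted p = 0.0227). Without WT untreated library 1, whose Clca1 was highest in its group, the log2 difference was 2.32 and passed (edgeR adjusted p = 0.0425). Over the 22 alternatives, adjusted p ran from 0.0227 to 0.215 and passed in 4 of them.

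After DSS, Clca1 averaged 3158 ± 1720 CPM in TG mice and 1796 ± 844 CPM in WT mice (SD, n = 2 each), with overlapping libraries. The difference of 1.76-fold (log2 0.81 ± 0.53 SE) did not pass (edgeR adjusted p = 0.622). The genotype-by-DSS term, which compares the DSS difference of TG mice with that of WT mice, was -0.92 ± 0.69 on the log2 scale and did not pass (edgeR adjusted p = 0.682). As a description, DSS libraries were 4.01-fold lower than untreated ones in TG mice, without overlap, and 2.12-fold lower in WT mice, with overlap; 35.1% of all genes tested did not overlap in TG mice and 57.4% in WT mice.

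Goblet cell genes moved in the same genotype contrast. Of 15 listed goblet cell genes tested, 7 were higher and 0 lower in untreated TG than WT tissue at an adjusted p under 0.05 in edgeR, against 3.7% of all genes tested (2.26% higher and 1.44% lower). The 7 were Agr2, Atoh1, Ccl9, Galnt12, Retnlb, Spdef and Spink4, and the median log2 difference of the list was 0.56, against -0.02 over all genes. Retnlb, a bactericidal goblet cell protein, averaged 1083 CPM in untreated TG mice and 162 CPM in untreated WT mice (6.70-fold, adjusted p = 0.000956), and Spdef, a factor of goblet cell maturation, was 2.53-fold higher (adjusted p = 0.0139). Of the 4 most abundant genes on the list, the mucin Muc2 (log2 0.57, adjusted p = 0.405), Fcgbp (1.19, 0.114), Zg16 (-0.14, 0.832) and Klf4 (0.03, 0.95) did not pass.

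The summed level of the 15 goblet cell genes was 29437, 18559 and 25942 CPM in untreated TG mice and 19867, 9270 and 11861 CPM in untreated WT mice, and 0 of the 15 genes was at 0 in either group. These sums overlapped between the genotypes. Clca1, which is not on the list, amounted to 45.3, 68.5 and 46.1% of that sum in untreated TG mice and 32.4, 20.8 and 25.8% in untreated WT mice, and the 2 groups did not overlap in this ratio. In levels of single genes, the untreated groups did not overlap for 32.1% of all genes tested. After DSS the ratio of Clca1 to the goblet cell sum was 14.0 and 7.27% in TG mice and 11.1 and 8.63% in WT mice. The goblet cell sum after DSS was 26718 to 31245 CPM in TG mice and 13907 to 21638 CPM in WT mice. The part of goblet cell number in the Clca1 difference was not tested.

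Clca2, the relative known from stratified epithelia, was near the limit of detection and had the same order of group means as Clca1. It had 0.352 and 0.468 CPM in TG mice after DSS, 0.236 and 0.162 CPM in WT mice after DSS, 2.50, 3.90 and 5.03 CPM in untreated TG mice and 1.23, 0.536 and 0.369 CPM in untreated WT mice. These levels rest on 42 to 81 counts per library in untreated TG mice, 6 to 21 in untreated WT mice and 3 to 8 in the DSS libraries. The untreated TG libraries stood above all others. Untreated TG and WT libraries did not overlap for 32.1% of all genes tested. Clca2 is not set against that share, because it passed the low-count filter only through the untreated TG libraries.

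Untreated TG mice averaged 3.81 ± 1.26 CPM of Clca2 and untreated WT mice 0.712 ± 0.458 CPM (SD, n = 3 each), a difference of 5.28-fold (log2 2.40 ± 0.42 SE, 95% interval 2.75- to 10.1-fold). The edgeR adjusted p was 0.0175, and that of the other 3 members was over 0.05. Clca2 entered this test only because untreated TG libraries raised it over the low-count filter, so its call is not set against the 3.7% of all genes that passed. In a fit with no low-count filter its adjusted p was 0.011. The call was lost without TG untreated library 2 (adjusted p = 0.0634) or 3 (0.0531) and without WT untreated library 2 (0.0924) or 3 (0.0809), with log2 differences between 2.08 and 3.03 over all left-out libraries. It was also lost with the replicate number as a block (adjusted p = 0.0573) and in limma on log2(FPKM + 0.1) (0.0684), which makes 6 of 21 alternatives.

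Genes that mark stratified epithelium were low throughout except for Pkp1. Pkp1 averaged 67.3 CPM in untreated TG mice and 57.1 CPM in untreated WT mice. Of 15 on the list, 7 were tested and 0 passed between untreated TG and WT tissue in edgeR (1 at an unadjusted p under 0.05, and 0 by DESeq2), with a median log2 difference of -0.11. The summed level of the 14 that the tables list was 64.0 to 83.0 CPM in untreated TG mice and 58.8 to 67.3 CPM in untreated WT mice, most of it Pkp1. The basal markers Krt5 and Trp63 reached at most 0.415 and 0.0540 CPM in any library and were not among the 7. Of the 7 tested, 3 had a log2 difference above 0 in untreated TG against WT tissue. They were Krt13 (2.51, edgeR adjusted p = 0.193), Ly6d (1.62, 0.317) and Pkp1 (0.24, 0.422). Krt4 (-0.92, 0.355) was the furthest below 0.

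After DSS, Clca2 was 2.03-fold higher in TG than WT mice with an interval of 0.621- to 6.66-fold (edgeR adjusted p = 0.666), on counts of 8 or fewer. The genotype-by-DSS term was -1.38 ± 0.94 on the log2 scale (adjusted p = 0.643). As a description, Clca2 was 9.14-fold lower in DSS than untreated libraries of TG mice and 3.52-fold lower in those of WT mice. Its libraries did not overlap in either genotype. Over all genes tested, 35.1% did not overlap in TG mice and 57.4% in WT mice. Clca2 in TG mice is not set against that share, since the untreated TG libraries alone brought it past the filter.

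Clca4a, which in mouse lies at the apical side of enterocytes, was expressed at a middling level in every group. Its values were 286 and 299 CPM in TG mice after DSS, 215 and 188 CPM in WT mice after DSS, 55.0, 383 and 251 CPM in untreated TG mice and 209, 142 and 140 CPM in untreated WT mice. The untreated TG group held both the lowest and the highest library of the series, so its coefficient of variation was 71.8%, against 24.1% in untreated WT mice. TG untreated library 1, the low one, also had the lowest level of the leukocyte gene Ptprc in its group (8.94 CPM, against up to 79.5 CPM), and the part of that library's composition in the Clca4a value was not tested.

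Between untreated TG and WT tissue, Clca4a differed 1.41-fold with an interval of 0.653- to 3.03-fold (edgeR adjusted p = 0.596). The result turned on single libraries. Without TG untreated library 1, Clca4a was higher in TG mice by log2 0.96 and passed (adjusted p = 0.026), and without TG untreated library 2 the log2 difference was -0.11. After DSS the 2 TG libraries lay above the 2 WT libraries, at 292 ± 8.62 CPM and 201 ± 18.9 CPM (SD, n = 2 each), and the 1.45-fold difference did not pass (interval 0.569- to 3.71-fold, adjusted p = 0.784). Groups of this size did not overlap for 43.2% of all genes tested. The DSS-against-untreated difference of Clca4a was 1.27-fold in TG mice and 1.23-fold in WT mice, with overlap in both genotypes, and the term comparing them was 0.05 ± 0.78 (log2, adjusted p = 0.987).

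Clca4b, the near-copy of Clca4a, was the member that chose the family. It had 845 and 1345 CPM in TG mice after DSS, 680 and 1305 CPM in WT mice after DSS, 6.61, 8.88 and 14.4 CPM in untreated TG mice and 12.1, 14.1 and 6.61 CPM in untreated WT mice. The lowest DSS library was far above the highest untreated one. As a description of the values that chose it, Clca4b was 110-fold higher in DSS than untreated libraries of TG mice (log2 6.78 ± 0.45 SE) and 90.2-fold higher in those of WT mice (6.50 ± 0.45). By FPKM, Clca4b ranked between 183 and 357 in the DSS libraries and between 8495 and 10362 in the untreated ones.

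Clca4b did not pass between the genotypes in either state. In untreated tissue the libraries of TG and WT mice overlapped, and the log2 difference was -0.15 ± 0.38 SE with a fold interval of 0.504 to 1.62 (edgeR adjusted p = 0.855). After DSS it averaged 1095 ± 354 CPM in TG mice and 993 ± 442 CPM in WT mice (SD, n = 2 each), a 1.10-fold difference with an interval of 0.585- to 2.08-fold (adjusted p = 0.926). The difference between the genotypes' DSS values was 0.29 ± 0.56 on the log2 scale and is given with no test. Over the 4 members, 0 passed between TG and WT mice after DSS, where 0.185% of all genes passed, and 0 of the 3 tested for the genotype-by-DSS term passed, where 0.846% of all genes passed. At an unadjusted p under 0.05 the edgeR counts were 0 in both, and DESeq2 also gave 0 in both.

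**Figure D2:**
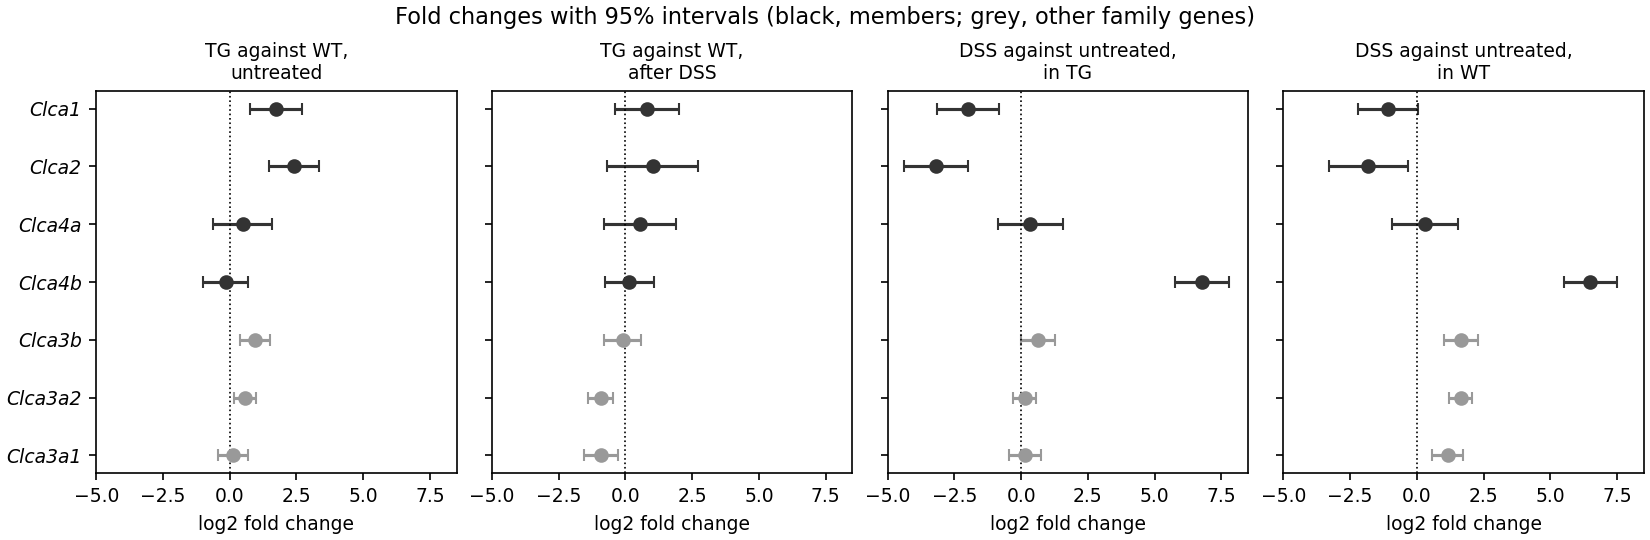
Fold changes from the fit of all 10 libraries, on the log2 scale with 95% intervals, for the 4 members (black) and 3 other protein-coding CLCA genes (grey). Clca4b stands at 6.78 in TG and 6.50 in WT mice for DSS against untreated, values that chose the family, and Clca1 and Clca2 lie right of 0 between untreated TG and WT mice.

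The order of Clca4b and Clca4a was turned round between the states. Clca4b was 2.95 and 4.51 times Clca4a by FPKM in TG mice after DSS and 3.17 and 6.95 times in WT mice after DSS. In untreated tissue it was 12, 2.32 and 5.73% of Clca4a in TG mice and 5.81, 9.99 and 4.74% in WT mice. The summed level of the pair was 1131 and 1643 CPM in TG mice after DSS, 895 and 1493 CPM in WT mice after DSS, 61.6, 392 and 266 CPM in untreated TG mice and 221, 156 and 146 CPM in untreated WT mice. With the pair and Clca4c-ps counted as 1 gene, DSS libraries were 5.79-fold higher than untreated ones in TG mice and 6.85-fold higher in WT mice, again as a description. The difference between genotypes in that sum did not pass in untreated tissue (log2 0.46, edgeR adjusted p = 0.625) or after DSS (0.22, 0.922).

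The make-up of the family's transcripts differed between the states. By FPKM summed over the 8 CLCA genes, Clca1 held 40.0 to 70.9% in TG mice after DSS, 29.6 to 59.4% in WT mice after DSS, 93.0 to 94.3% in untreated TG mice and 80.0 to 92.2% in untreated WT mice. Clca4b held 13.4 to 27.1% in TG and 16.5 to 31.6% in WT mice after DSS, and at most 0.110% in untreated TG and 0.574% in untreated WT mice. The summed FPKM was 1534 to 2013 in TG mice after DSS, 1330 to 1412 in WT mice after DSS, 4254 to 4715 in untreated TG mice and 854 to 2447 in untreated WT mice. Untreated TG libraries had the largest sum, nearly all of it Clca1.

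**Figure D3:**
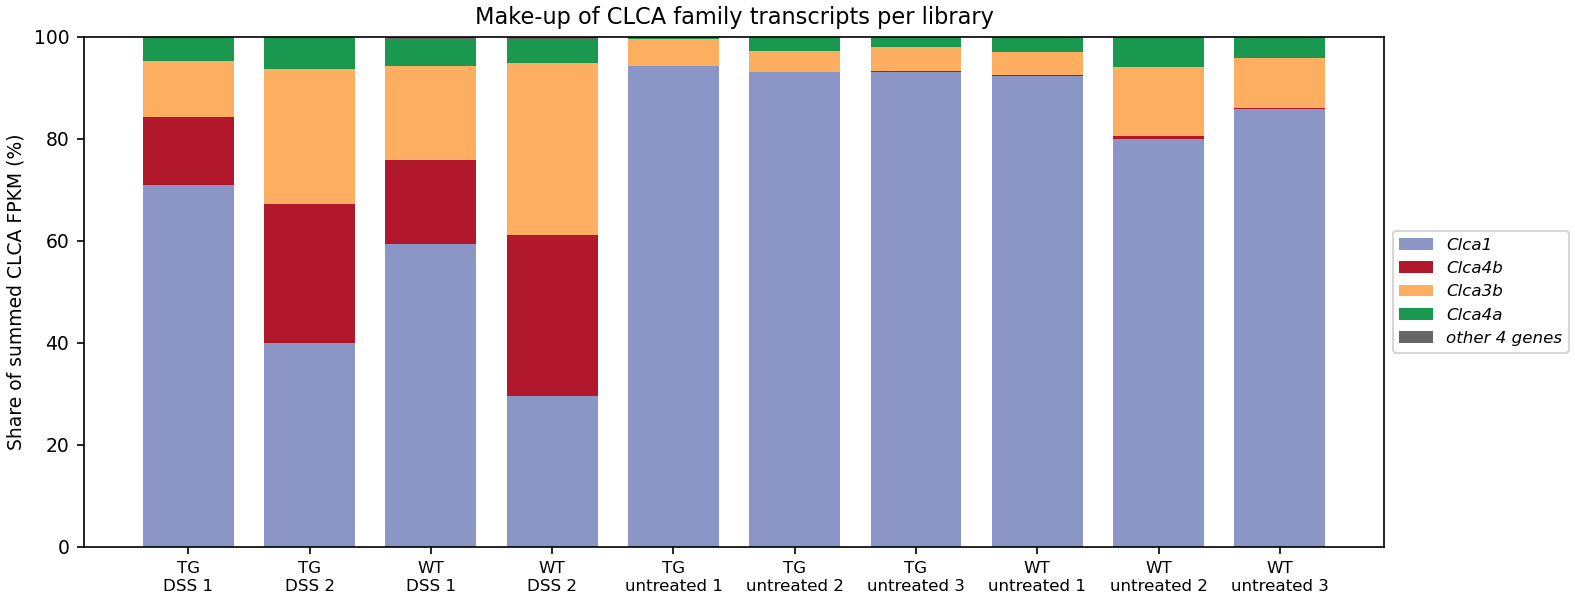
Share of the summed CLCA FPKM held by each gene in every library, in percent; the other 4 genes together are too few to see. Clca1 fills 93.0 to 94.3% of the bar in the TG untreated libraries, and Clca4b takes 13.4 to 31.6% in the 4 DSS libraries.

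Among the DSS libraries, Clca1 and Clca4b stood in opposite order in both genotypes. Library 1 had 2.25 times the Clca1 CPM of library 2 in TG mice and 1.99 times in WT mice. Library 2 had 1.59 times the Clca4b CPM of library 1 in TG mice and 1.92 times in WT mice, and Clca3b followed Clca4b at 1.91 and 1.83 times. Clca4a was nearly level, at 1.04 and 0.875 times. With 2 libraries in each group these are values of single libraries.

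Of the other family genes, Clca3b was an abundant transcript, and Clca3a1 and Clca3a2 were low. Clca3b had 762 and 1454 CPM in TG mice after DSS, 838 and 1536 CPM in WT mice after DSS, 837, 634 and 689 CPM in untreated TG mice and 358, 366 and 398 CPM in untreated WT mice. The untreated TG libraries lay above the untreated WT ones, and the 1.92-fold difference did not pass (edgeR adjusted p = 0.0775), but passed in 4 of 21 alternatives, with adjusted p from 0.00726 to 0.246. Untreated TG and WT libraries did not overlap for 32.1% of all genes tested. For DSS against untreated, all 3 family genes were higher in WT mice, where 19.8% of all genes passed. They were Clca3b at 3.17-fold (edgeR adjusted p = 0.00434), Clca3a2 at 3.12-fold (0.000578) and Clca3a1 at 2.23-fold (0.014). In TG mice their adjusted p was 0.257, 0.765 and 0.849. Clca3a2 averaged 8.31 CPM in TG mice and 15.8 CPM in WT mice after DSS, and 7.55 CPM in untreated TG mice and 5.05 CPM in untreated WT mice. Its genotype-by-DSS term passed, at -1.50 ± 0.28 on the log2 scale (adjusted p = 0.0406), and passed in 9 of 20 alternatives, with adjusted p up to 0.185. Clca3a1 had a term of -1.03 ± 0.38 and Clca3b one of -1.04 ± 0.41, and neither passed (edgeR adjusted p = 0.311 and 0.340). Over all genes, 0.846% passed for this term, which cannot be told apart from a genotype-by-sex term. Clca3a1 and Clca3a2 are 97.08% identical in coding sequence, so the division of reads between them is uncertain.

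Chloride and potassium transport genes gave 1 call between untreated genotypes. Of 18 tested, 1 was higher and 0 were lower in untreated TG than WT tissue, with a median log2 difference of -0.05, where 3.7% of all genes passed. At an unadjusted p under 0.05 there were 4, and 3 passed in DESeq2. The 1 was Kcne3, a potassium channel subunit that sustains chloride secretion, at 199 ± 32.5 CPM in TG mice and 128 ± 15.3 CPM in WT mice (SD, n = 3 each; 1.55-fold, edgeR adjusted p = 0.0325). After DSS, 0 of the 18 passed between genotypes in edgeR (6 at an unadjusted p under 0.05, and 1 by DESeq2). For DSS against untreated, 0 were higher and 1 lower in TG mice, where 5.48% of all genes passed, and 1 higher and 5 lower in WT mice, where 19.8% passed. Ano1, the mouse gene of the channel that human CLCA1 stabilises, was the gene that fell in both, named after its values were seen. It averaged 65.5 CPM in TG mice after DSS and 131 CPM in untreated TG mice (edgeR adjusted p = 0.00644), and 84.4 CPM in WT mice after DSS and 166 CPM in untreated WT mice (adjusted p = 0.00377).

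Interleukin 4 and 13 pathway genes were mostly too low to test. Of 16, 14 were listed and 6 were tested. The cytokine genes Il13 and Il4 reached at most 0.117 and 0.119 CPM in any library. Between untreated TG and WT tissue 1 of the 6 was higher and 0 were lower, where 3.7% of all genes passed. The 1 was Arg1, an arginase that marks alternatively activated macrophages (1.14 CPM in TG mice and 0.240 CPM in WT mice, 4.65-fold, edgeR adjusted p = 0.0143). The receptor gene Il4ra (log2 0.54, adjusted p = 0.113) and Stat6 (0.18, 0.348) did not pass.

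In untreated TG against WT tissue, where 3.7% of all genes passed, the other lists gave the following counts. Of 13 surface colonocyte genes tested 0 were higher and 2 lower, of 9 small intestinal genes 0 and 1, of 10 regional identity factors 0 and 2, and of 8 leukocyte genes 0 and 0 in edgeR (2 at an unadjusted p under 0.05, and 0 by DESeq2), whereas of 9 smooth muscle and fibroblast genes 3 were higher and 0 lower. The lower genes were Car4 and Slc20a1 of the surface colonocytes, the small intestinal Cubn, and the regional factors Hoxd10 and Hoxd13. Hoxd13 averaged 17.3 CPM in untreated TG mice and 41.2 CPM in untreated WT mice, and Hoxd10 averaged 1.35 and 3.57 CPM. Of the 10 regional factors, 5 had a log2 difference above 0, and the median was 0.01. The 3 higher genes were the collagen genes Col1a1, Col1a2 and Col3a1. The summed level of the last list was 48.7 to 127 CPM in untreated TG mice and 29.0 to 44.2 CPM in untreated WT mice, and that of the 8 leukocyte genes was 20.2 to 110 CPM in untreated TG mice and 79.6 to 142 CPM in untreated WT mice. Their part in the CLCA values was not tested. After DSS, 1 gene of all the lists above passed between genotypes in edgeR, where 0.185% of all genes passed. It was the goblet cell factor Atoh1 (1.91-fold higher in TG mice, edgeR adjusted p = 0.0374). Of the 15 goblet cell genes, 14 had a log2 difference above 0 after DSS, with a median of 0.71. At an unadjusted p under 0.05 there were 8, and 2 passed in DESeq2. Of the 13 surface colonocyte genes, 11 were above 0, with a median of 0.38 (4 at an unadjusted p under 0.05, and 2 by DESeq2).

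**Figure D4:**
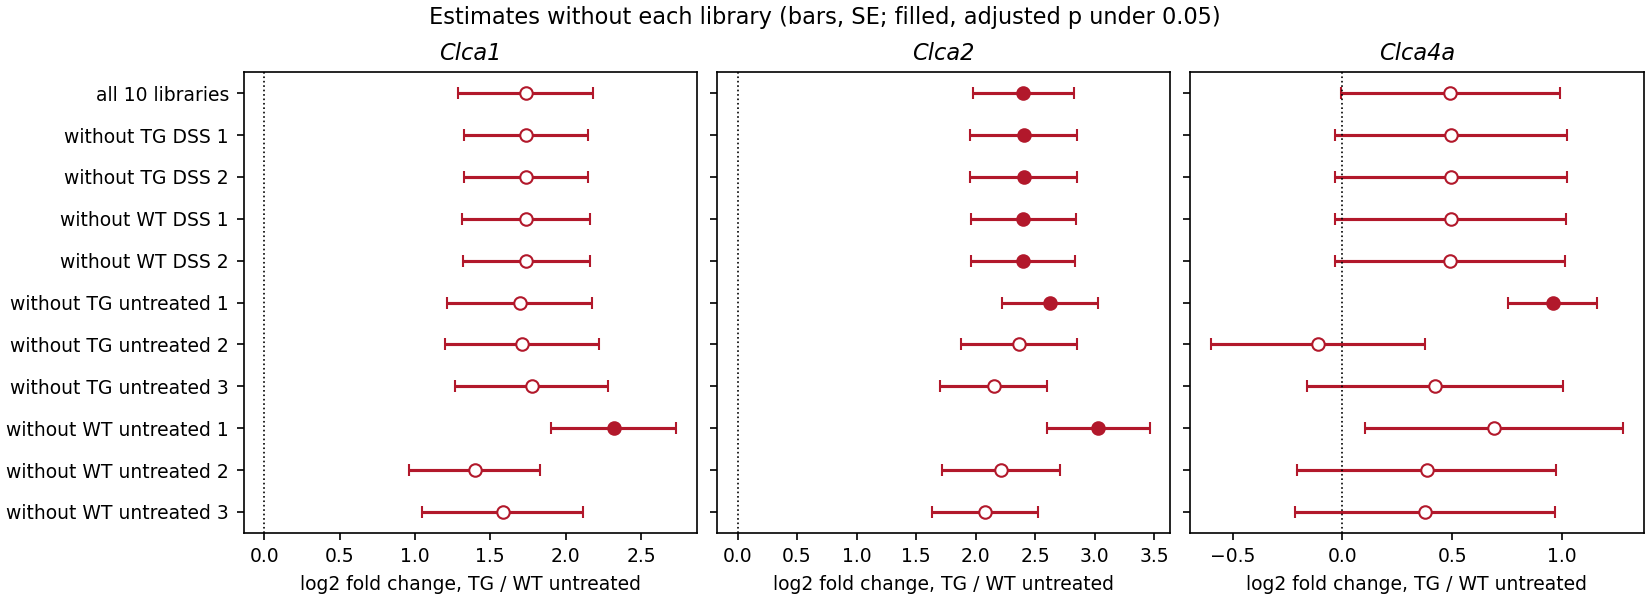
Log2 difference between untreated TG and WT mice for Clca1, Clca2 and Clca4a, with all 10 libraries and without each in turn; bars are SE and filled points have an edgeR adjusted p under 0.05. Clca1 stays between 1.40 and 2.32 and Clca2 between 2.08 and 3.03, while Clca4a ranges from -0.11 to 0.96.

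The genes whose log2 CPM followed each member most closely over the 10 libraries were found among 12736 genes, as a description in which all points share the group differences. For Clca1 they were Clps, the colipase of fat digestion (r = 0.979), Trib1 (0.954), Adipor2 (0.95), the muscarinic receptor gene Chrm3 (0.946) and the secretory cell lectin gene Reg4 (0.943). For Clca2 they were Fam221a (0.970), Ppp1r15b (0.963), the secretory lineage factor Gfi1 (0.960), Cldnd1 (0.958) and Trib1 (0.955), and Clca1 and Clca2 themselves had r = 0.915. For Clca4b they were Ly6c1 (0.993), the protease inhibitor gene Slpi (0.987), the serine protease gene Prss22 (0.986), Tac1 (0.986) and the retinoic acid enzyme gene Aldh1a3 (0.986). For Clca4a they were Dnajb6 (0.974), Nipal1 (0.95), Gopc (0.947), Mia3 (0.945) and Nus1 (0.940), and Clca4a and Clca4b had r = 0.396.

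With the group means removed, the closest genes were others, and the points are then deviations among libraries of 1 group. They were Ercc4 (r = 0.968), Pappa2 (0.951) and Limch1 (0.932) for Clca1, and 3110056K07Rik (0.936), Camk1d (0.923) and Btbd10 (0.922) for Clca2. For Clca4a they were Pcdh17 (0.993), Tmed7 (0.990) and Snapc1 (0.989), and for Clca4b Pim2 (0.956), 4933404O12Rik (0.951) and Plcg2 (0.946). Clca4a varied most among the untreated TG libraries, where library 1 had 55.0 CPM and the others 383 and 251 CPM. How far its r values rest on that library was not tested. Clca1 and Clca2 had r = 0.432 in these deviations.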

How the data were processed

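Poly-A RNA of intestinal tissue was made into BGISEQ-500 libraries, per the labels' protocols. Build mm10 and the tools RSEM 1.2.12, Bowtie2 2.2.5 and HISAT2 2.0.4 are listed in the submitters' processing notes. Per the file headers, the authors deposited an expected count and an FPKM per gene for each library; strandedness is not given in the sources used here, and FPKM were used for levels between genes. Expected counts were rounded to whole numbers and fitted with edgeR 4.0.16 (R 4.3.3) in 1 model of all 10 libraries with 1 mean per group, TMM scaling, filterByExpr (minimum count 10, total 15; 14072 genes) and a quasi-likelihood test, Benjamini-Hochberg adjusted over all genes tested with a threshold of 0.05. "Passed" means an adjusted p under 0.05; SE and 95% intervals come from that fit. CPM are TMM-scaled counts, and log2 values of single libraries used a prior count of 2. DESeq2 1.42.0, limma 3.58.1 on log2 FPKM with pseudocounts of 1 and 0.1, other scalings and filters, and left-out libraries were alternatives. Replicates of a group differed by more than counting noise in all pairs (chi-square per gene 9.98 to 65.1), so none was counted as deposited more than once. Nothing in the labels ties replicates to separate animals, and the spread behind each p-value may therefore be technical.

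The members and gene lists were chosen with earlier results of these data known. DSS against untreated chose the family and carries no test for the members. Genes named included the members and the 5 and 3 genes most like each member. Genes of tissue, sex and the transgene and the neighbours of the cluster were named as well. Further list genes, such as Krt5, Trp63, Krt13, Il4 and Il13, were also named, some of them after their values were seen. The 4 most abundant of each list were named where a result turns on them. Genes behind some counts of 7 or fewer were also named, chosen after their values were seen. Sequence windows came from GENCODE M21 transcripts and the RefSeq promoter table, which held Clca4b and Clca2 of the members. Antisense genes annotated over Clca4a were not used here.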

Additional observations from a re-analysis of the deposited data

Results flagged for a closer look

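The pseudogene Clca4c-ps, which no comparison above uses on its own, had 48.35 expected counts summed over the 4 DSS libraries, against 1.12 over the 6 untreated ones. It was singled out because it showed a signal in data outside the comparisons of the members. Of the 50-base words of its transcript, 14.18% also occur in Clca4a and 7.089% in Clca4b, and the part of reads shared with these genes was not tested.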

How the results depend on the processing

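In untreated TG against WT mice, 1 member passed, Clca2, which met the low-count filter only through the untreated TG libraries. DESeq2 and a fit with no low-count filter each gave 2 (Clca1 and Clca2), and at least 1 CPM in 5 libraries, under which Clca2 was not tested, and log2(FPKM + 0.1) each gave 0. Leaving out 1 library gave 0 to 2. It gave 2 without WT untreated library 1 or TG untreated library 1, and 0 without library 2 or 3 of either untreated group. Clca1 ranged from 1.40 to 2.32 (log2), and Clca2 from 2.08 to 3.03. Clca4a was reversed at -0.11 without TG untreated library 2 (range -0.11 to 0.96). Clca4b was reversed at 0.06 without WT untreated library 2, at 0.078 without TG untreated library 1 (range -0.51 to 0.08) and at 0.46 with the Clca4 genes summed, a setting chosen after seeing the data. After DSS and for the genotype-by-DSS term, 0 members passed under every alternative run. The Clca4b difference after DSS was reversed at -0.25 without WT DSS library 1 and at -0.23 without TG DSS library 2 (range -0.25 to 0.69). The Clca4a genotype-by-DSS term was reversed at -0.16 without WT untreated library 1, -0.42 without TG untreated library 1 and -0.04 without WT DSS library 2 (range -0.42 to 0.64), and that of Clca4b ranged from -0.11 to 0.83, with -0.24 for the summed genes. The cause was not tested. Where 1 DSS library was left out, the other was assumed to vary like the other groups.

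As descriptions, Clca2 in DSS against untreated mice was -0.81 in TG and -0.17 in WT mice on log2(FPKM + 1), with or without the filter, and -2.35 in TG and -0.86 in WT mice on log2(FPKM + 0.1), where the pseudocount is as large as its level. The Clca4 genes summed gave 2.53 in TG and 2.78 in WT mice. Of 424 alternative values of single members, 396 were counted as unchanged. For tested values this means the same direction and side of the threshold. For the untested DSS values and the Clca4b genotype-by-DSS term it means a move smaller than the replicate spread, whatever the sign. Among tested values 6 lost and 5 gained a call and 9 were reversed, and 8 untested values moved by at least the replicate spread.

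Over all genes, the count of 520 in untreated TG against WT mice was 1018 by DESeq2 and ranged from 58 to 730 over left-out libraries; the 26 after DSS were 248 by DESeq2, 7 by total count scaling, 8 in a fit of those groups alone, 9, 8 and 12 on log2 FPKM, and 4 to 145 over left-out libraries; the 119 for the genotype-by-DSS term were 425 by DESeq2 and 24 to 424. DSS against untreated gave 771 in TG mice (1170 by DESeq2, 395 in those groups alone, range 173 to 1677) and 2788 in WT mice (range 970 to 4112).

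Deviations of same-numbered untreated TG and WT libraries had r = 0.083, -0.013 and -0.186, and those of the DSS libraries 0.206, which with 2 libraries a group is a single value. The numbers were not taken to pair the libraries, since not every pair was over 0.1. With the replicate block, 1 member passed, Clca1 (1.93, edgeR adjusted p = 0.0242) in place of Clca2 (2.41, adjusted p = 0.0573), and the counts over all genes were 166 in untreated mice, 7 after DSS, 41 for the genotype-by-DSS term, 356 for DSS in TG mice and 1614 in WT mice. At 3 to 8 counts per library, Clca2 after DSS is limited by depth.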

Other observations

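The nearest protein-coding genes on either side of the CLCA cluster were also read. Selenof, a selenoprotein gene before the cluster, averaged 193 ± 22.0 CPM in untreated TG mice and 136 ± 6.06 CPM in untreated WT mice (SD, n = 3 each). This log2 difference of 0.51 ± 0.10 passed (edgeR adjusted p = 0.0286), where 3.7% of all genes passed. Its neighbour Sh3glb1 averaged 124 ± 23.0 CPM in untreated TG mice and 144 ± 6.49 CPM in untreated WT mice, and Odf2l, after the cluster, averaged 11.1 ± 4.53 CPM in untreated TG mice and 8.90 ± 1.66 CPM in untreated WT mice (SD, n = 3 each). Neither passed (edgeR adjusted p = 0.374 and 0.564). For DSS against untreated, Selenof was 1.56-fold higher in WT mice (edgeR adjusted p = 0.00542), where 19.8% of all genes passed. In TG mice it was 1.17-fold higher and did not pass (0.315). Sh3glb1 and Odf2l did not pass in WT mice (0.301 and 0.341) or TG mice (0.175 and 0.810). Col24a1, also after the cluster, reached at most 0.0591 CPM in any library.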
